A study of Mus musculus with 2 samples.

Results

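The cells described here are 55 of the 23816 cells in single-cell libraries made from tissue labelled olfactory epithelium of 2 mice. They are called Frzb+ Chil1+ cells, and they were proposed as a kind of chondrocyte, the cell that makes cartilage. The cells were chosen by counts of unique molecules (UMIs) of 6 genes: at least 2 UMIs of Frzb, at least 1 of Chil1, at least 1 of Cnmd, at most 1 of Col10a1, at most 1 of Ucma and at most 2 of Prg4. Mouse 1 gave 26 such cells of 14136 (0.184%, 95% Clopper-Pearson interval 0.120% to 0.269%), and mouse 2 gave 29 of 9680 (0.300%, 0.201% to 0.430%). The mean share was 0.242% ± 0.082 (SD, n = 2 mice).

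Both animals were male C57BL/6J mice labelled as wildtype, without a treatment, and the labels give no age. Each library came from its own animal. No condition was compared in the series, so the comparisons below set the Frzb+ Chil1+ cells against other cells of the same animals. The libraries held 95844802 and 86049057 UMIs in all, and the median cell had 3908.5 UMIs in mouse 1 and 5199 in mouse 2.

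Cartilage of the nose holds chondrocytes within a matrix of type II collagen fibrils and the large proteoglycan aggrecan, bounded by a sheath, the perichondrium. Frzb codes for a secreted protein that binds Wnt ligands, and it is known from cartilage and bone. Chil1 codes for a secreted chitinase-like glycoprotein without chitinase activity. Cnmd codes for chondromodulin, a cartilage protein that inhibits vessel growth. The genes that had to be low mark other chondrocyte states: Col10a1 is the collagen of hypertrophic chondrocytes, Ucma a matrix protein of chondrocytes in growth cartilage, and Prg4 the lubricant of cartilage surfaces. Trf, the iron carrier transferrin, and S100b, a calcium-binding protein used as a chondrocyte marker, were proposed as further markers and were not used to choose the cells.

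The sequences upstream of the genes that had to be present are shown because these genes name the cells. They run from 250 bases before to 50 bases after the start of each gene and come from RefSeq, in build GRCm38.p6, 5′ to 3′ on the gene's strand. The submitters' processing notes name another build, GRCm39, for the counts, and no position from the counts is used. Capitals mark the core sequence recognised by Sox factors, ACAAT or ATTGT on the other strand, which do not overlap in this window.
Frzb, chr2:80447347-80447646, minus strand: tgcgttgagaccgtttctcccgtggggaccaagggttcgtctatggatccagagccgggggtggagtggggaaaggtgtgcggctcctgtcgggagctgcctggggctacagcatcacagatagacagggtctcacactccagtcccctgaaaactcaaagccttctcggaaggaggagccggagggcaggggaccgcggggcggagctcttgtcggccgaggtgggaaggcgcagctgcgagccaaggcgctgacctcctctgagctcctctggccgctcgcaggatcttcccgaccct
Chil1, chr1:134181906-134182205, plus strand: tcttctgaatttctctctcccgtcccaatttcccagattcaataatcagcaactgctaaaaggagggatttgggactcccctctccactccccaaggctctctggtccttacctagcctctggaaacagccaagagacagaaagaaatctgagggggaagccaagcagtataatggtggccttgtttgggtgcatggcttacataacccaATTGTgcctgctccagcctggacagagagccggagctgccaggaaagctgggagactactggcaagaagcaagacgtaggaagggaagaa
Cnmd, chr14:79662134-79662433, minus strand: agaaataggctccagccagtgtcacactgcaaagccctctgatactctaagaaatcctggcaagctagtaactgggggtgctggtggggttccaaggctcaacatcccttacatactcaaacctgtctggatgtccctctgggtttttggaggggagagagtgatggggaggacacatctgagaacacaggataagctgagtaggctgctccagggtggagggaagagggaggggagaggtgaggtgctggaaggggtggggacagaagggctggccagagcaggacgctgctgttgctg
The core was found 1 time in the Chil1 window and 0 times in the windows of Frzb and Cnmd, and 10192 of 32851 RefSeq promoter windows of the same length (31.0%) held it. A match of these letters is a description, not a binding site.

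Levels are given in CPM, the UMIs of a gene over all UMIs of the summed cells of a group in a mouse, times 1000000. The Frzb+ Chil1+ cells held 289018 UMIs in mouse 1 and 374779 in mouse 2, so that 3 UMIs over both mice, taken as the floor for a level, were 4.52 CPM. Their median depth was 12098 and 12909 UMIs, with single cells between 1143 and 21928 UMIs, and the median share of mitochondrial UMIs was 4.08% and 4.72%. Free RNA was measured in barcodes of at most 50 UMIs, which are too shallow to be cells. Intervals and floors cover counting error only.

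The genes of the rule describe the choice and were not tested. Frzb was at 253 CPM in mouse 1 (95% Poisson interval 198 to 318) and 342 CPM in mouse 2 (285 to 406), against 25.4 and 36.2 CPM in the cells outside all 5 groups used here and 49.8 and 49.9 CPM in free RNA. In single Frzb+ Chil1+ cells Frzb ran between 104 and 1347 CPM with a median of 235 in mouse 1, and between 91.2 and 2625 CPM with a median of 300.4 in mouse 2. Chil1 was at 951 and 1075 CPM, against 355 and 308 CPM in the cells outside the groups and 500 and 489 CPM in free RNA. In single cells Chil1 ran from 52.1 to 5285 CPM in mouse 1 and from 77.5 to 4326 CPM in mouse 2. Many cells of each mouse thus lay below the Chil1 level of free RNA. Cnmd was at 1727 and 3466 CPM, against 797 and 881 CPM in the cells outside the groups and 1091 and 1121 CPM in free RNA. Cnmd thus stood apart between the animals, with a cell median of 1104 CPM in mouse 1 and 2148 CPM in mouse 2. The expected share with a Chil1 UMI, each cell thinned to 1000 UMIs, was 51.7% and 48.4% in the Frzb+ Chil1+ cells. It was 31.0% and 27.2% in Ucma+ cells and 38.2% and 54.4% in Col10a1+ cells, both described below. In the same order, the shares for Cnmd were 70.5% and 82.0%, 79.1% and 84.3%, and 58.0% and 73.1%. Those for Frzb were 31.3% and 32.4%, 4.42% and 5.34%, and 9.68% and 9.90%. By this share Cnmd was higher in Ucma+ cells, and Chil1 in Col10a1+ cells of mouse 2.

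How sharply the rule cuts can be seen at its edges. In all, 819 cells met the thresholds on Frzb, Chil1 and Cnmd, and the Frzb+ Chil1+ cells are 6.68% of those in mouse 1 and 6.74% in mouse 2. Most of the rest had more than 1 UMI of Ucma, 326 cells in mouse 1 and 385 in mouse 2. The cells left out by Ucma alone numbered 149 and 167. Just inside that threshold, 15 Frzb+ Chil1+ cells in each mouse had exactly 1 Ucma UMI, and just outside it 4 and 8 cells had exactly 2. Frzb alone left out 691 and 263 cells, of which 55 and 23 had exactly 1 Frzb UMI, and 17 and 11 Frzb+ Chil1+ cells had exactly 2. The other thresholds alone left out fewer cells, 13 and 8 for Chil1, 0 and 2 for Cnmd, 18 and 11 for Col10a1, and 8 and 4 for Prg4. Just inside the Chil1 threshold, 5 and 7 Frzb+ Chil1+ cells had exactly 1 Chil1 UMI. Many Frzb+ Chil1+ cells thus lie 1 UMI from a threshold.

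The levels of the genes that had to be low are set beside free RNA, which was rich in them. Ucma was at 51.9 and 40.0 CPM in the Frzb+ Chil1+ cells, against 667 and 728 CPM in free RNA. With each cell thinned to 1000 UMIs, the expected share of cells with a Ucma UMI was 7.53% and 3.86% in the Frzb+ Chil1+ cells and 7.23% and 2.85% in cells with at least 3 of 5 endothelial markers, which should lack the gene. Without thinning, the shares were 57.7% and 51.7% in the Frzb+ Chil1+ cells and 19.9% and 10.3% in the endothelial-marker cells, whose median depths were 4263.5 and 4487 UMIs. The rule allowed at most 1 Ucma UMI in a cell, so the low shares in the Frzb+ Chil1+ cells describe the choice and say nothing of background.

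**Figure D1:**
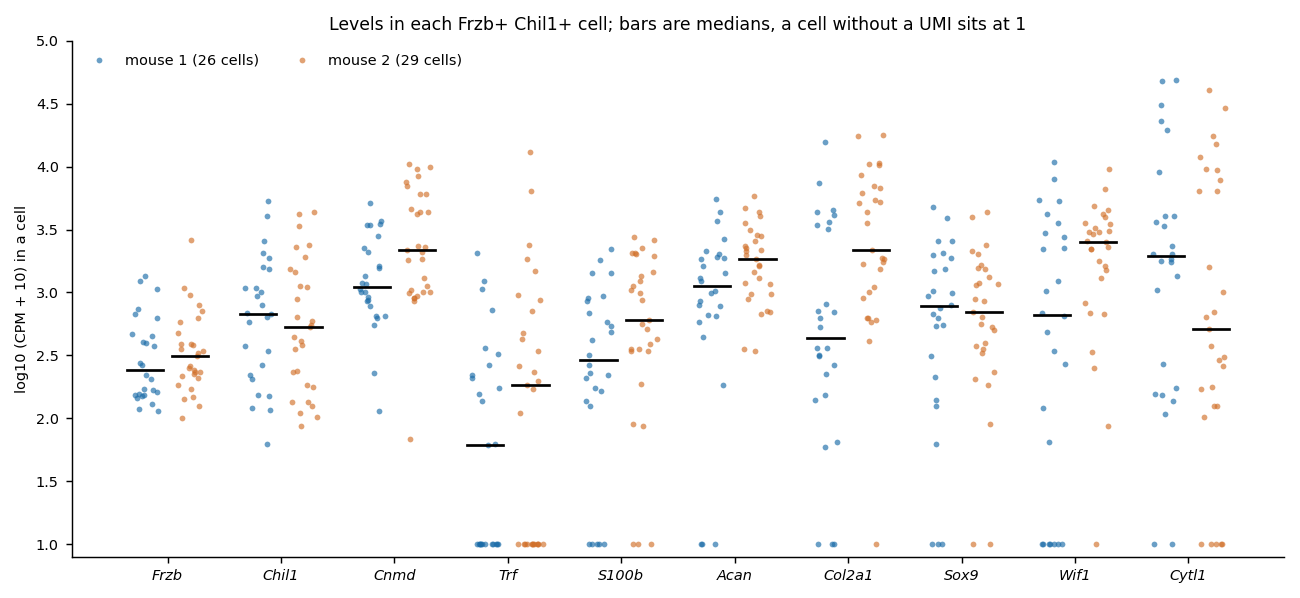
Levels of 10 genes in each of the 55 Frzb+ Chil1+ cells, as log10 of CPM plus 10, with 26 cells of mouse 1 in blue and 29 of mouse 2 in orange; black bars are medians and cells without a UMI of the gene sit at 1. Trf had no UMI in a large part of the cells of both mice, while Acan was found in 23 of 26 and 29 of 29 cells.

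The label was checked against markers that the rule did not use. Acan, the core protein of aggrecan, was at 1657 and 2015 CPM (1836 ± 253, SD, n = 2), against 1058 and 944 CPM in free RNA, and was found in 23 of 26 and 29 of 29 cells. Sox9, the transcription factor that chondrocytes need, was at 1228 and 926 CPM, against 1040 and 762 CPM in free RNA. Thinned to 1000 UMIs, the share with Acan was 63.0% and 78.3%, against 13.4% and 5.86% in the endothelial-marker cells, and that with Sox9 53.1% and 53.4%, against 16.2% and 6.89%. Hapln1, the link protein that ties aggrecan to hyaluronan, was at 474 and 678 CPM, against 317 and 345 CPM in free RNA. The levels of these genes were above those of free RNA in both mice.

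Col2a1, the main collagen of cartilage, was uneven. It was at 1855 CPM in mouse 1 and 4389 CPM in mouse 2, against 3533 and 3225 CPM in free RNA, so that mouse 1 lay below free RNA. Single cells ran from 0 to 15564 CPM with a median of 436 in mouse 1, and from 0 to 17863 CPM with a median of 2148 in mouse 2. Matn1, a matrilin of mature cartilage, had 0 UMIs in mouse 1 and was in 1 cell of mouse 2. Matn3, another matrilin, was at 34.6 and 64.0 CPM, under the 117 and 95.2 CPM of free RNA. The summed level of 8 chondrocyte markers was 6875 and 10484 CPM, against 12773 and 13436 CPM in the Ucma+ cells described below. It was 6527 and 6483 CPM in the cells outside the groups and 8071 and 7653 CPM in free RNA. In mouse 1 the sum was thus near that of the cells outside the groups and below free RNA. Of the matrilins outside the marker list, Matn2 was at 62.3 and 66.7 CPM, against 29.7 and 30.7 CPM in free RNA, and Matn4 at 41.5 and 101 CPM, against 32.9 and 27.7 CPM. Of the other listed markers, the thinned share with Snorc was 61.9% and 79.1%, against 16.1% and 9.15% in the endothelial-marker cells. That with Col9a1 was 15.2% and 10.8%, against 4.97% and 1.66% there and 35.9% and 35.9% in Ucma+ cells. By Acan, Sox9 and Hapln1 the cells carried chondrocyte transcripts. Matn1 was nearly absent, Matn3 was under free RNA, and Col2a1 was under free RNA in mouse 1.

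Of the proposed markers outside the rule, S100b was the more even. S100b had a UMI in 21 of 26 and 26 of 29 cells and was at 630 and 1086 CPM, against 213 and 290 CPM in the cells outside the groups and 279 and 327 CPM in free RNA. Trf was at 280 and 977 CPM, against 117 and 148 CPM in the cells outside the groups and 138 and 188 CPM in free RNA. Trf had a UMI in 14 of 26 and 17 of 29 cells, with a cell median of 51.5 CPM in mouse 1 and 173 CPM in mouse 2. A single cell of mouse 2 reached 13077 CPM and held 33.1% of the Trf UMIs there. Trf was thus found in some of these cells and not in all.

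Markers of blood, nerve, epithelial and endothelial cells were low or absent. Those of connective tissue were found, with the fibroblast and osteoblast sums under those of free RNA and the pericyte or smooth muscle sum above it. All 5 markers of T or NK cells were at 0 in both mice, as were C1qa, C1qb, C1qc and Adgre1 of macrophages, Sox10 of Schwann cells, Krt5, Krt8 and Krt18 of epithelium, Omp and Stoml3 of olfactory neurons, and Bglap and Sp7 of osteoblasts. The 5 fibroblast markers summed to 5107 and 6761 CPM in the Frzb+ Chil1+ cells, against 20813 and 20629 CPM in the cells outside the groups and 18270 and 20819 CPM in free RNA. At least 3 of these markers had a UMI in 20 of 26 and 27 of 29 cells. The 5 tenocyte markers summed to 1173 and 1345 CPM, against 1024 and 992 CPM in the cells outside the groups and 1172 and 1320 CPM in free RNA. Fmod gave 907 and 1043 CPM of that sum, and Scx, the transcription factor of tendon, had no UMI. The 5 osteoblast markers summed to 1149 and 2623 CPM, against 7392 and 8101 CPM in the cells outside the groups and 7421 and 9653 CPM in free RNA. Col1a1 gave 1121 and 2500.1 CPM of the sum in the Frzb+ Chil1+ cells. The 5 markers of pericytes or smooth muscle summed to 605 and 584 CPM, against 396 and 500.3 CPM in the cells outside the groups. Free RNA held 374 and 445 CPM of them, and no Frzb+ Chil1+ cell had a UMI of 3 of them. The part of fibroblast, tenocyte or pericyte RNA in the results was not tested.

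Doublet scores were higher than usual in these deep cells. The median Scrublet score was 0.077 and 0.061 in the Frzb+ Chil1+ cells, against 0.047 and 0.042 over all cells. The 1599 and 750 cells with the highest scores were 11.3% and 7.75% of all cells. Among them were 5 of 26 and 9 of 29 Frzb+ Chil1+ cells, a larger share than that of all cells in both mice. Of the cells, 483 in each mouse shared a barcode name with a cell of the other mouse, and 1 Frzb+ Chil1+ cell was among them. Results are given for all 55 cells. Of 159 calls of named genes, 25 ended when the cells with the highest doublet scores were left out and 10 when those with shared barcode names were. Those of the second kind included Ccl7, Fmod and Il11 against Ucma+ cells, Ccl7 against Col10a1+ cells, Pltp and Tfrc against Prg4+ cells, and Pi16 against Frzb- Chil1- cells.

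The Frzb+ Chil1+ cells were compared with 4 other groups of Cnmd-positive cells of the same mice. The Ucma+ cells (2080 in mouse 1 and 1216 in mouse 2) had at least 2 UMIs of Ucma, the Col10a1+ cells (101 and 34) at least 2 of Col10a1, and the Prg4+ cells (762 and 343) at least 3 of Prg4, each within the limits of the rule for the other low genes. The Frzb- Chil1- cells (1538 and 927) had no UMI of either gene and the same low limits as the Frzb+ Chil1+ cells. Their median depths were 6999 and 10813, 6873 and 12066.5, 5372.5 and 8056, and 2736.5 and 4372 UMIs, all under the 12098 and 12909 UMIs of the Frzb+ Chil1+ cells. Counts were summed per mouse and group and tested across 16867 genes with edgeR's quasi-likelihood test, the mouse as a block, and a Benjamini-Hochberg adjusted p under 0.05 as the call. All 4 comparisons share the Frzb+ Chil1+ sums, and none of the 6 genes of the rule was tested. The sums come from 2 animals, 4 residual degrees of freedom were left, and genes that go with the rule's genes in the same cells are not independent of the choice, so the calls describe the chosen cells.

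The Col10a1+ cells differed least in number of called genes. Against them 99 genes were called (0.587%), 47 higher (0.279%) and 52 lower (0.308%) in Frzb+ Chil1+ cells. Against the Ucma+ cells 297 were called (1.76%), 143 higher (0.848%) and 154 lower (0.913%). Against the Prg4+ cells 446 were called (2.64%), 225 higher (1.33%) and 221 lower (1.31%), and against the Frzb- Chil1- cells 1904 (11.3%), 1090 higher (6.46%) and 814 lower (4.83%). The numbers of cells behind the sums differ between these groups, so the counts are not a measure of distance. The median log2 fold change of all genes was −0.17, −0.08, −0.16 and −0.14 against Ucma+, Col10a1+, Prg4+ and Frzb- Chil1- cells. With DESeq2 size factors these medians became −0.07, −0.04, −0.07 and −0.14, and the splits 196 higher and 126 lower against Ucma+ cells and 373 higher and 170 lower against Prg4+ cells.

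**Figure D2:**
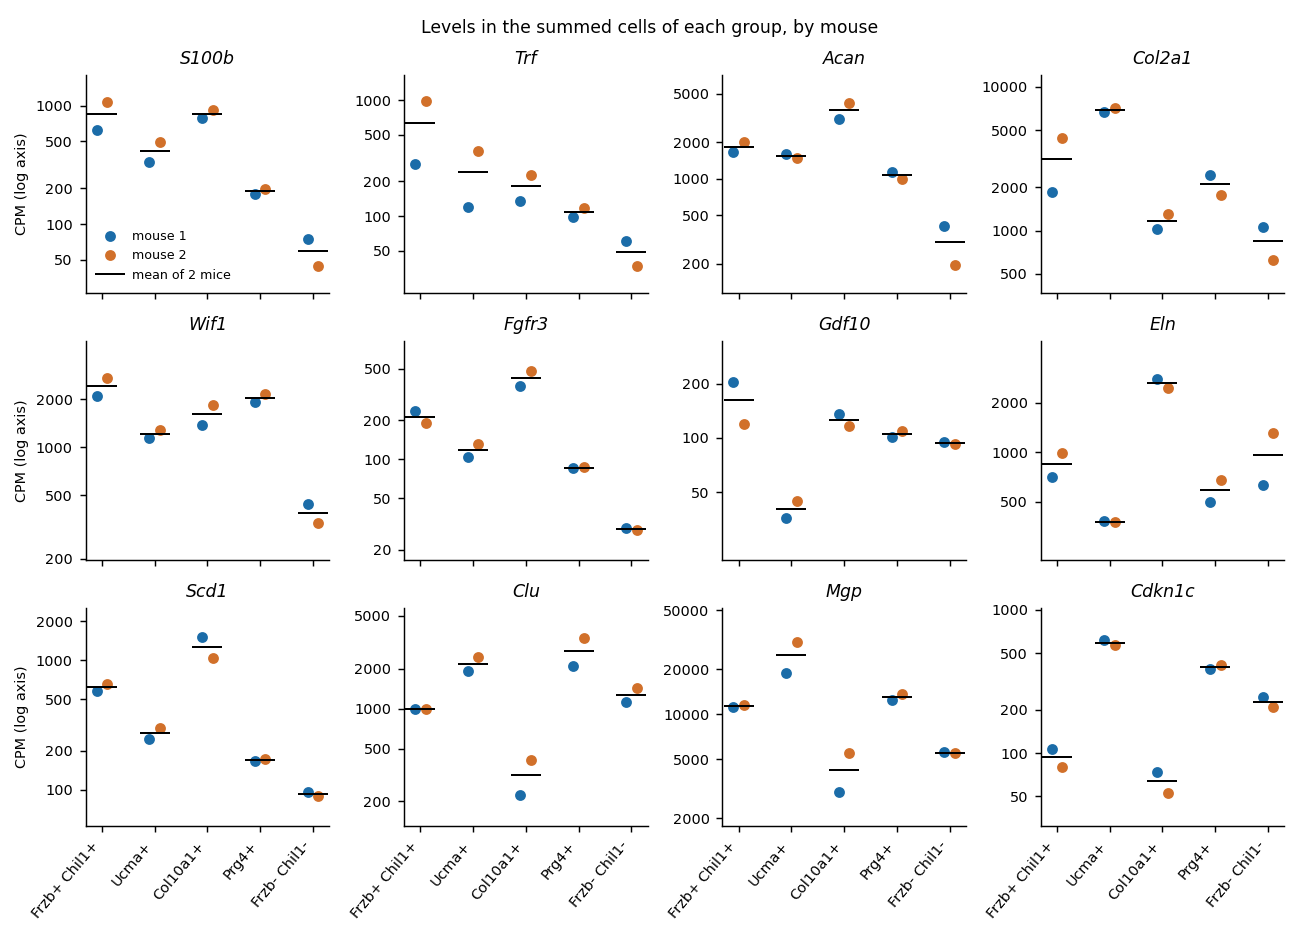
Levels of 12 genes in CPM, on log axes, in the summed cells of each group, with the Frzb+ Chil1+ cells at the left; points are the mice and black bars the mean of 2. S100b is at like levels in the Frzb+ Chil1+ and Col10a1+ cells and lower in the other groups, Cdkn1c is low in both of these groups, Acan is highest in the Col10a1+ cells, and Gdf10 is lowest in the Ucma+ cells. The difference of S100b from the Ucma+ cells was not called.

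Against the Ucma+ cells, Cdkn1c, Cilp2 and Cemip were among the genes that fell. Cdkn1c, an inhibitor of cyclin-dependent kinases, was at 107 and 80.0 CPM in Frzb+ Chil1+ cells, against 612 and 568 CPM in Ucma+ cells (log2 fold change −2.72 ± 0.22 SE, adjusted p = 1.4e-08). Cilp2, a cartilage matrix glycoprotein, was at 31.1 and 53.4 CPM, against 295 and 317 CPM in Ucma+ cells (−2.90 ± 0.26, adjusted p = 6e-08). Cemip, a protein that breaks down hyaluronan, was at 20.8 and 21.3 CPM, against 248 and 261 CPM in Ucma+ cells (−3.65 ± 0.34, adjusted p = 8.8e-08). In each of these the 2 mice of a group lay close together and the groups were far apart. That is no further test, since the genes were named for their calls.

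The steepest falls were of genes nearly without UMIs in the Frzb+ Chil1+ cells. Gm525 had 1 UMI in all, 0 and 2.67 CPM, against 86.1 and 55.9 CPM in Ucma+ cells, and Tspan13, a tetraspanin, was at 6.92 and 8.0 CPM, against 157 and 196 CPM. Kcnq5, a potassium channel, was at 10.4 and 18.7 CPM, against 217 and 148 CPM, and Itgbl1, a secreted integrin-like protein, at 20.8 and 16.01 CPM, against 166 and 175 CPM. Majin, a meiotic telomere protein, Srgn, the proteoglycan serglycin, and the chemokine Ccl7 completed the 8 largest falls, with log2 fold changes of −3.92 ± 0.64, −3.17 ± 0.43 and −3.26 ± 0.61. Ccl7 was at 13.8 and 0 CPM in Frzb+ Chil1+ cells, against 92.3 and 30.3 CPM in Ucma+ cells and 502 and 362 CPM in free RNA.

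The largest rises rested on fewer cells. Sbsn, suprabasin, was at 72.7 and 50.7 CPM in Frzb+ Chil1+ cells, against 3.29 and 7.61 CPM in Ucma+ cells (3.48 ± 0.46, adjusted p = 4.9e-05), but 95.2% of its UMIs in mouse 1 came from 1 cell. Sbsn overlaps Tmem147os on the same strand, which was also among the largest rises (2.77 ± 0.40, lost when the highest doublet scores were removed), so the reads of these genes cannot be told apart. Flnc, filamin C, was at 149 and 125 CPM, against 20.2 and 12.9 CPM, from 2 and 4 cells, and without its highest cell in each mouse it was no longer above Ucma+ cells in both mice. Epha4, a receptor of ephrins, was at 104 and 42.7 CPM, against 10.5 and 10.2 CPM (2.70 ± 0.35, adjusted p = 1.6e-05), from 6 and 7 cells. Myoc, myocilin, and the overlapping antisense gene Myocos rose by 2.24 ± 0.36 and 2.02 ± 0.24 and lost their calls when the highest doublet scores were removed. Pdzrn4 rose by 2.04 ± 0.37, from 8 and 9 cells.

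Ptges, an enzyme that makes prostaglandin E, was found in more cells than the other 7 of these rises. Ptges was at 339 and 240 CPM in Frzb+ Chil1+ cells, against 57.7 and 74.4 CPM in Ucma+ cells and 64.2 and 62.5 CPM in free RNA (2.07 ± 0.21, adjusted p = 2.3e-07), with UMIs in 15 of 26 and 17 of 29 cells. Of the 108 higher calls with at least 50 CPM, 103 were also higher in both mice without the highest cell of each. The median of these 108 genes had a UMI in 29.5 of the 55 cells. Without the mouse as a block the count of calls was 68, and among cells of 3000 to 10000 UMIs, which left 10 and 5 Frzb+ Chil1+ cells, it was 52. Against Ucma+ cells that also met the Frzb and Chil1 thresholds 100 genes were called, a comparison added after the data were seen, and 83 of these were among the 297. Of the genes named against Ucma+ cells, 24 were also called there, among them Gdf10 (2.21), Wif1 (1.46), Dkk3 (1.33), Cdkn1c (−1.85) and Col9a1 (−1.76). The other 26 were not, among them Sbsn, Myoc, Pdzrn4, Majin, Itgbl1, Col6a1, Lum, Dcn, Fgfr3, Scd1, Plin2, Clu, Hspb1 and Tnfaip3.

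Several genes were near the levels of the Col10a1+ cells. Plin2, which coats lipid droplets, was at 72.7 and 195 CPM, against 98.9 and 172 CPM in Col10a1+ cells, and S100b at 630 and 1086 CPM, against 789 and 922 CPM (log2 fold change −0.04 ± 0.35, adjusted p = 1). Cdkn1c was at 107 and 80.0 CPM, against 74.2 and 52.4 CPM in Col10a1+ cells. A p that misses the threshold does not show equal levels.

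Spp1, the bone matrix protein osteopontin, was at 298 and 267 CPM in Frzb+ Chil1+ cells, against 16.5 and 11.9 CPM in Col10a1+ cells and 169 and 118 CPM in free RNA (4.30 ± 0.36, adjusted p = 1.1e-07). Its UMIs lay in 9 and 8 cells, and the highest cell held 62.8% of them in mouse 1. Fmod, fibromodulin, a proteoglycan of collagen fibrils, was at 907 and 1043 CPM, against 271 and 188 CPM (2.01 ± 0.20, adjusted p = 3.6e-07). Thbs1, thrombospondin 1, was at 242 and 243 CPM, against 48.3 and 33.4 CPM (2.49 ± 0.28), Clu, clusterin, at 990 and 998 CPM, against 221 and 410 CPM (1.68 ± 0.19), and Mgp, which inhibits calcification, at 11134 and 11577 CPM, against 3013 and 5453 CPM (1.43 ± 0.20, adjusted p = 0.00069). Free RNA held more of Fmod, Thbs1, Clu and Mgp than the Col10a1+ cells did (950 and 992, 389 and 343, 1391 and 1607, and 12362 and 16279 CPM), and its part in these differences was not tested.

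Epha4 (1.93 ± 0.43), Islr (1.85 ± 0.31), the calcium sensor Ncs1 (2.03 ± 0.39) and Thap12 (1.87 ± 0.42) were also among the 8 largest rises over Col10a1+ cells, as was Flnc (4.95 ± 0.48). Calls of Epha4, Mgp and Ccl7 ended when the highest doublet scores were removed. The largest fall was of Nt5dc1, at 38.1 and 37.4 CPM, against 989 and 981 CPM in Col10a1+ cells. Nt5dc1 overlaps Col10a1 on the other strand in the annotation, and no source used here states the counting strand, so its reads cannot be told apart from those of the gene that chose the group. The other 7 of the largest falls were of Ccl7 (−3.88 ± 0.61), the phosphatase Dusp2 (−2.94 ± 0.58), the autophagy gene Becn1 (−2.59 ± 0.48), Nrep (−2.42 ± 0.43), Spaar (−2.39 ± 0.48), Gm49144 (−2.37 ± 0.42) and the kinase Alpk1 (−2.16 ± 0.38). Of the 36 higher calls with at least 50 CPM, 36 were higher in both mice without their highest cells. Without the block 7 genes were called in all.

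Against the Prg4+ cells Plin2 rose by 3.07 ± 0.35 (adjusted p = 0.00014), at 72.7 and 195 CPM, against 18.5 and 13.7 CPM in Prg4+ cells. Pltp, which transfers phospholipids, was at 65.7 and 216 CPM, against 19.8 and 14.4 CPM (2.96 ± 0.46), and Cmtm5 at 48.4 and 56.0 CPM, against 9.26 and 5.62 CPM (2.86 ± 0.43). Ecrg4, a secreted peptide precursor, was at 211 and 643 CPM, against 68.6 and 56.9 CPM (2.73 ± 0.47, adjusted p = 0.042), a call that ended when the highest doublet scores were removed. Sbsn, Tmem147os (not called without the highest doublet scores), Epha4 and Flnc were the other 4 of the 8 largest rises. S100b, the proposed marker, rose by 2.26 ± 0.36 (adjusted p = 0.02), at 630 and 1086 CPM, against 178 and 199 CPM. Against Ucma+ cells none of 12 S100 genes tested by edgeR, S100b among them, was called. There 2 had an unadjusted p under 0.05, and DESeq2 called 1.

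Among the falls against Prg4+ cells, Ccl7 was at 13.8 and 0 CPM, against 231 and 128 CPM (−4.79 ± 0.53), and Postn, periostin, at 6.92 and 2.67 CPM, against 74.3 and 131 CPM (−4.40 ± 0.60). Igfbp3, which binds insulin-like growth factors, was at 10.4 and 2.67 CPM, against 55.6 and 58.0 CPM, and Lepr, the leptin receptor, at 3.46 and 8.0 CPM, against 44.0 and 57.6 CPM. Tspan13 (−3.41 ± 0.51), Cemip (−3.29 ± 0.35), Sulf1, a heparan sulfatase (−3.19 ± 0.50), and Gm16897 (−3.37 ± 0.62) fell as well. Bmp2, a ligand that drives cartilage and bone formation, was at 228 and 141 CPM, against 743 and 739 CPM (−1.98 ± 0.22, adjusted p = 2.3e-06). These falls were of genes in few Frzb+ Chil1+ cells, except Bmp2, with UMIs in 16 and 11 cells. The call of Postn ended when the highest doublet scores were removed, and without the block 79 genes were called.

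The Frzb- Chil1- cells were Cnmd-positive cells with many fibroblast transcripts, so that this comparison spans kinds of cells. The 5 fibroblast markers summed to 5107 and 6761 CPM in Frzb+ Chil1+ cells, against 28215 and 29765 CPM in Frzb- Chil1- cells, whose median depth was also the lowest. S100b was at 630 and 1086 CPM in Frzb+ Chil1+ cells, against 74.6 and 44.2 CPM in Frzb- Chil1- cells (4.00 ± 0.39, adjusted p = 0.00032). Corin, a membrane protease (3.33 ± 0.24), Scube1, a secreted protein with EGF repeats (3.25 ± 0.25), Fxyd3, a regulator of the sodium pump (3.25 ± 0.31), and Mmp28, a metalloprotease (3.38 ± 0.38), rose as well. So did Acan (2.81 ± 0.40), Snorc, a cartilage proteoglycan (2.69 ± 0.40), Col9a3 (2.85 ± 0.34) and Sox9 (1.83 ± 0.21). Genes without a UMI in the Frzb+ Chil1+ cells included Pcdh7, at 68.0 and 53.8 CPM in Frzb- Chil1- cells and so at least 13.6-fold lower, and Dkk2, a Wnt antagonist, at least 12.2-fold lower, a call that ended without the highest doublet scores. Pi16, a fibroblast gene, was at 0 and 10.7 CPM, against 727 and 676 CPM in Frzb- Chil1- cells (adjusted p = 0.048).

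**Figure D3:**
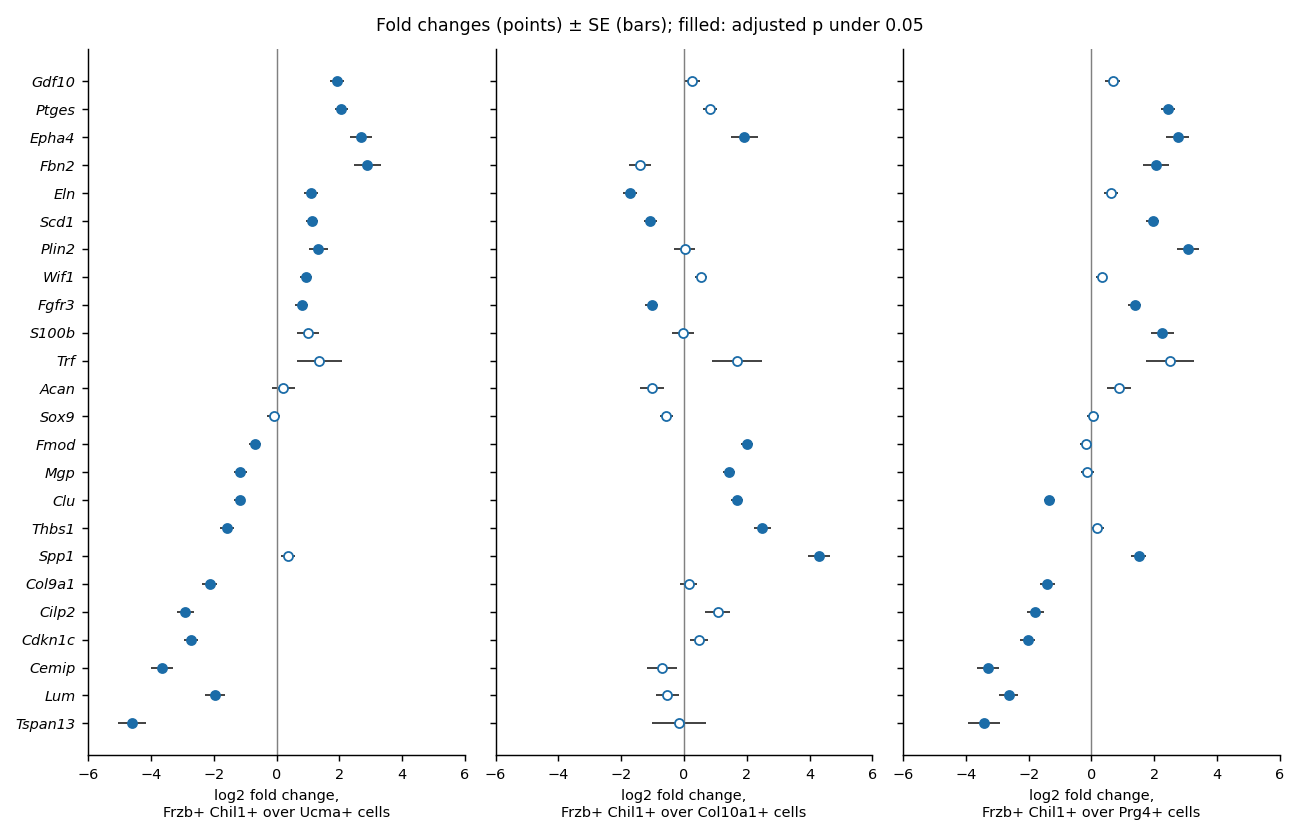
Log2 fold changes of 24 genes in Frzb+ Chil1+ cells over Ucma+, Col10a1+ and Prg4+ cells; points are edgeR estimates, bars the SE, and filled points have an adjusted p under 0.05. Clu and Mgp lie below 0 over Ucma+ cells and above 0 over Col10a1+ cells, while Eln, Scd1 and Fgfr3 do the reverse.

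Gene lists were counted against the share of calls among all genes given above. Of 13 cartilage collagens, 3 were higher and 3 lower than in Ucma+ cells (median log2 fold change −0.42, against −0.17 over all genes). Those higher were Col6a1, Col6a2 and Col6a3, chains of the pericellular type VI collagen, with Col6a1 at 837 and 1027 CPM, against 431 and 566 CPM (0.85 ± 0.17, adjusted p = 0.0038). Those lower were Col9a1, at 100.3 and 136 CPM, against 515 and 500 CPM (−2.13 ± 0.23), Col12a1 (−2.04 ± 0.24) and Col11a2 (−1.14 ± 0.21), which sit on or within the fibrils. Against Prg4+ cells 2 of 13 were lower, Col9a1 (−1.40 ± 0.23) and Col14a1 (−1.98 ± 0.37), and against Col10a1+ cells 2 of 13 were higher, Col12a1 (1.75 ± 0.33) and Col16a1 (1.20 ± 0.23). Col9a1 at 100.3 and 136 CPM was near the 100.1 and 112 CPM of Col10a1+ cells (0.15 ± 0.26, adjusted p = 0.9).

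The 12 small leucine-rich proteoglycans, which bind collagen fibrils, had 4 members lower and 0 higher than in Ucma+ cells (edgeR, median log2 fold change −0.68, or −0.45 with genes without a UMI placed at the floor), namely Lum (−1.96 ± 0.31), Omd (−1.68 ± 0.32), Dcn (−1.02 ± 0.22) and Fmod (−0.68 ± 0.18, adjusted p = 0.0496, a call that ended with DESeq2 size factors). Lum, lumican, was at 55.4 and 21.3 CPM, against 146 and 127 CPM in Ucma+ cells, 249 and 232 CPM in Prg4+ cells and 271 and 266 CPM in free RNA. Dcn, decorin, was at 1830 and 1569 CPM, against 3530.1 and 3087 CPM in Ucma+ cells and 5952 and 5450.4 CPM in free RNA. Of 25 other cartilage matrix proteins, 23 were not called against Ucma+ cells. Comp, a protein that crosslinks fibrils, was at 1218 and 1433 CPM, against 633 and 717 CPM in Col10a1+ cells (0.93 ± 0.17, adjusted p = 0.0052). Of 24 tested genes of chondroitin sulfate synthesis, none was called against Ucma+ or Col10a1+ cells by edgeR (6 and 4 at an unadjusted p under 0.05, 0 and 1 by DESeq2), and Ust was lower than in Prg4+ cells (−1.19 ± 0.32). The Ust call, and those of Col14a1 against Prg4+ and Col12a1 against Col10a1+ cells, ended when the highest doublet scores were removed.

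Frzb is itself a secreted Wnt antagonist, and the list of these holds genes of several families. Among its 11 tested members, 2 were higher than in Ucma+ cells and 0 lower. Against Col10a1+ cells 1 was higher and 0 lower, and against Prg4+ cells 0 and 2, Dkk2 and Notum. Against Frzb- Chil1- cells 3 were higher, Dkk3, Wif1 and Notum, and 4 lower, Dkk2, Sfrp2, Sfrp4 and Apcdd1. Wif1, which binds Wnt ligands, was at 2097 and 2711 CPM, against 1142 and 1277 CPM in Ucma+ cells and 1000.5 and 1001 CPM in free RNA (0.94 ± 0.19, adjusted p = 0.0054). Wif1 was not called against Col10a1+ or Prg4+ cells. Its thinned share was 51.2% and 78.4%, against 51.3% and 53.4% in Ucma+ cells. The share was 55.6% and 66.6% in Col10a1+ cells and 63.4% and 61.6% in Prg4+ cells. By this share Wif1 was not higher than in Ucma+ cells in mouse 1. Dkk3 was at 322 and 371 CPM, against 166 and 222 CPM in Ucma+ cells (0.79 ± 0.19) and 170 and 181 CPM in Col10a1+ cells (0.92 ± 0.20), and both Dkk3 calls ended when the highest doublet scores were removed. Notum, an enzyme that inactivates Wnt ligands, was at 166 and 125 CPM, against 299.5 and 359 CPM in Prg4+ cells (−1.12 ± 0.25). Of 30 tested Wnt ligands, receptors and targets, 29 were not called against Ucma+ cells, and Lef1, a transcription factor of the pathway, was at 114 and 82.7 CPM, against 44.7 and 52.4 CPM (0.94 ± 0.24, adjusted p = 0.038). Both rises of antagonists over Ucma+ cells were under 2-fold. The Lef1 call also ended without the highest doublet scores, and among cells of 3000 to 10000 UMIs Wif1 and Dkk3 turned to −0.10 and −1.50 over Ucma+ cells.

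Of 29 tested BMP ligands, antagonists and targets, 1 was higher and 1 lower than in Ucma+ cells. Gdf10, also called BMP-3b, was at 204 and 120 CPM, against 35.7 and 44.5 CPM in Ucma+ cells and 74.8 and 102 CPM in free RNA (1.93 ± 0.24, adjusted p = 8.6e-06), with UMIs in 14 cells of each mouse. The related Bmp3 was at 3.46 and 2.67 CPM, against 33.2 and 22.5 CPM (−3.23 ± 0.77, adjusted p = 0.021). Gdf10 was at 137 and 117 CPM in Col10a1+ cells, and none of the 29 genes was called against them by edgeR, with 6 at an unadjusted p under 0.05 and 0 by DESeq2. Among 12 tested FGF ligands and receptors, Fgfr3, the receptor that restrains chondrocyte growth, took a middle place. It was at 235 and 192 CPM in Frzb+ Chil1+ cells, against 104 and 131 CPM in Ucma+ cells (0.80 ± 0.21, adjusted p = 0.036), 368 and 481 CPM in Col10a1+ cells (−1.03 ± 0.21, adjusted p = 0.014) and 86.1 and 86.4 CPM in Prg4+ cells (1.37 ± 0.21, adjusted p = 0.00025). In each of these comparisons the mice of the groups did not overlap, which is no further test beside the calls. The rise of Fgfr3 was not called against Ucma+ cells that also met the Frzb and Chil1 thresholds.

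Of 16 tested genes of elastic fibres and microfibrils, 2 were higher and 1 lower than in Ucma+ cells, 0 and 1 than in Col10a1+ cells, and 1 and 3 than in Prg4+ cells. Eln, elastin, was at 709 and 990 CPM, against 379 and 377 CPM in Ucma+ cells (1.09 ± 0.22, adjusted p = 0.0088) and 2795 and 2466 CPM in Col10a1+ cells (−1.71 ± 0.22, adjusted p = 0.00044). Free RNA held 821 and 1264 CPM of Eln, above the Frzb+ Chil1+ cells, and the call against Ucma+ cells ended when the highest doublet scores were removed. Fbn2, fibrillin 2, was at 41.5 and 40.0 CPM, against 5.88 and 4.70 CPM in Ucma+ cells (2.89 ± 0.43), 106 and 102 CPM in Col10a1+ cells (not called) and 8.0 and 13.7 CPM in Prg4+ cells (2.05 ± 0.42), with UMIs in 5 and 6 cells. Among cells of 3000 to 10000 UMIs Eln turned to −0.29 and Fbn2 to −5.90 over Ucma+ cells, from 10 and 5 Frzb+ Chil1+ cells. Mfap2, a microfibril protein, was lower than in Ucma+ (−1.45 ± 0.33) and Prg4+ cells (−1.36 ± 0.34).

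The list of lipid storage and transport genes had 2 of 15 tested members higher and 1 lower than in Ucma+ cells, 1 and 1 against Col10a1+ cells, and 3 and 1 against Prg4+ cells. Scd1, which makes unsaturated fatty acids, was at 578 and 656 CPM, against 245 and 299 CPM in Ucma+ cells (1.13 ± 0.20, adjusted p = 0.0012), 1499.8 and 1032 CPM in Col10a1+ cells (−1.08 ± 0.20, adjusted p = 0.0062) and 168 and 172 CPM in Prg4+ cells (1.95 ± 0.21, adjusted p = 1.8e-06). Scd1 turned to −0.06 over Prg4+ cells among cells of 3000 to 10000 UMIs. Cidea, a lipid droplet protein, was at 38.1 and 29.4 CPM, against 2.74 and 3.86 CPM in Prg4+ cells (3.33 ± 0.63). Plin2 was higher than in Ucma+ cells (1.33 ± 0.30, adjusted p = 0.033), but not in both mice without the highest cell, which held 47.6% and 49.3% of its UMIs, and the call ended without the highest doublet scores. The member that was lower than in Ucma+ and Prg4+ cells was Clu, a carrier of lipids outside cells.

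Iron genes were counted beside Trf. Trf itself was not called in any comparison, with log2 fold changes of 1.36 ± 0.72 over Ucma+ cells (adjusted p = 0.54), 1.69 ± 0.80 over Col10a1+ cells (adjusted p = 0.57), 2.51 ± 0.77 over Prg4+ cells (adjusted p = 0.26) and 3.65 ± 0.82 over Frzb- Chil1- cells (adjusted p = 0.071). It was higher in both mice in each of these. Of 16 iron genes, 2 were higher than in Ucma+ cells, Cp, ceruloplasmin, which oxidises iron (125 and 74.7 CPM, against 40.6 and 20.2 CPM, 1.67 ± 0.28), and Steap3, which reduces it (131 and 141 CPM, against 65.6 and 59.6 CPM, 1.07 ± 0.23), a call that ended without the highest doublet scores. Tfrc, the transferrin receptor, was at 27.7 and 45.4 CPM, against 137 and 115 CPM in Prg4+ cells (−1.64 ± 0.33, adjusted p = 0.0057). Of 5 tested genes of the chitinase family and of receptors proposed for its products, none was called against Ucma+, Col10a1+ or Prg4+ cells by edgeR, with 0, 1 and 0 at an unadjusted p under 0.05 and none by DESeq2.

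Of 31 tested skeletal transcription factors, 1 was higher and 3 lower than in Ucma+ cells, against 1.76% of all genes called in that comparison. There were 2 higher and 1 lower than in Prg4+ cells, against 2.64% of all genes. None was called against Col10a1+ cells by edgeR, with 6 at an unadjusted p under 0.05 and 0 by DESeq2. Erg was at 100.3 and 104 CPM, against 251 and 166 CPM in Ucma+ cells (−1.03 ± 0.23), Foxp1 at 142 and 117 CPM, against 255 and 186 CPM (−0.81 ± 0.21), and Prrx1 at 349 and 336 CPM, against 198 and 190 CPM (0.77 ± 0.18). The calls of Erg here and of Nfatc1 below ended without the highest doublet scores, that of Foxp1 with DESeq2 size factors, and Prrx1 turned to −0.53 among cells of 3000 to 10000 UMIs. Sox9 was within 1 SE of no change against Ucma+ cells (−0.09 ± 0.20, adjusted p = 0.89) and Prg4+ cells (0.05 ± 0.20, adjusted p = 0.95). Nfatc2 was at 495 and 352 CPM, against 255 and 206 CPM in Prg4+ cells (0.94 ± 0.20), and Nfatc1, a relative of it, at 768 and 643 CPM, against 500.1 and 425 CPM (0.69 ± 0.19). Of 9 tested genes of hedgehog and PTHrP signalling, none was called in any of the 4 comparisons by edgeR or DESeq2. At an unadjusted p under 0.05 there were 2, 0, 0 and 2 against Ucma+, Col10a1+, Prg4+ and Frzb- Chil1- cells. Ihh, the hedgehog ligand of cartilage, had no UMI in the Frzb+ Chil1+ cells.

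Genes that respond to stimuli and stress moved in some comparisons, and the part of the enzyme digestion in them was not tested. Of 22 immediate early genes, 7 were higher and 1 lower than in Prg4+ cells (median 0.35), and 2 higher and 1 lower than in Ucma+ cells (median 0.09). Egr3 was at 180 and 131 CPM, against 69.8 and 51.2 CPM in Ucma+ cells (1.30 ± 0.23), and Fos at 1353 and 1323 CPM, against 2106 and 2060 CPM (−0.69 ± 0.17). Btg2 was at 1384 and 1238 CPM, against 499 and 756 CPM in Prg4+ cells (1.16 ± 0.22). Hspb1, a small heat shock protein, was at 851 and 931 CPM, against 270 and 509 CPM in Ucma+ cells (1.20 ± 0.19) and 248 and 420 CPM in Prg4+ cells (1.54 ± 0.20). Among cells of 3000 to 10000 UMIs Hspb1 turned to −0.52 and −0.76 in these comparisons, and Egr3 to −0.37. Tnfaip3, which restrains NF-kB, was at 273 and 133 CPM, against 61.1 and 65.03 CPM in Ucma+ cells (1.54 ± 0.24), and Il11, a cytokine, at 34.6 and 16.01 CPM, against 172 and 89.2 CPM (−2.45 ± 0.32). Mt2, a metallothionein, was at 4443 and 4629 CPM, against 2259 and 1625 CPM in Col10a1+ cells (1.20 ± 0.18) and 2922 and 2715 CPM in Prg4+ cells (0.78 ± 0.18).

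None of 25 tested glycolysis and hypoxia genes was called against Ucma+, Col10a1+ or Prg4+ cells by edgeR, with medians of 0.05, −0.05 and 0.13. At an unadjusted p under 0.05 there were 5, 6 and 5, and DESeq2 called 0, 0 and 3. Against Prg4+ cells, where 2.64% of all genes were called, the remaining lists differed in their counts. Of 13 genes of the insulin-like growth factor system, 5 were lower than in Prg4+ cells and 0 higher, among them Igfbp6 (41.5 and 53.4 CPM, against 258 and 394 CPM, −2.67 ± 0.33) and Igf1 (27.7 and 2.67 CPM, against 81.2 and 83.3 CPM, −2.51 ± 0.43). Of 26 tested proteases and inhibitors, 5 were higher and 4 lower than in Prg4+ cells, with Serpina3n, an acute phase inhibitor, at 339 and 315 CPM, against 68.4 and 60.1 CPM (2.42 ± 0.31). Of 13 tested cell cycle genes, the one called against Ucma+ and Prg4+ cells was Cdkn1c, lower in both. Enpp2, autotaxin, was named after its values were seen among the single cells, and it was higher than in Ucma+ (1.88 ± 0.25) and Prg4+ cells (1.13 ± 0.25). Against Col10a1+ cells Enpp2 had a log2 fold change of −1.03 ± 0.25 (adjusted p = 0.087), and its thinned share was 21.9% and 30.7%, against 45.1% and 43.3% in Col10a1+ cells.

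The Frzb+ Chil1+ cells were not alike among themselves. Cytl1, a secreted cartilage cytokine, ran from 0 to 48626 CPM with a median of 1923 in mouse 1, and from 0 to 40295 CPM with a median of 503 in mouse 2. Wif1 had no UMI in 7 cells of mouse 1 and reached 10777 CPM in another. Across the 55 cells, on log2 of UMIs per 10000 plus 1, Wif1 rose with Col8a1, a network collagen (r = 0.66, with 0.62 in mouse 1 and 0.62 in mouse 2), and with Fxyd3 (0.52, with 0.59 and 0.33). Enpp2 rose with Snorc (0.65), Fxyd3 (0.63) and S100b (0.55). Col1a1 and Col3a1, collagens of fibrous tissue, rose together (0.64), and Cytl1 fell with Col1a1 (−0.55, with −0.28 and −0.72), as did Dcn with S100b (−0.59, with −0.60 and −0.60). These are descriptions of 55 cells that share 2 libraries, and the pairs were chosen by their values, from the strongest among the 60 most variable genes. Depth differed between the cells, and the correlation with log2 UMIs was 0.45 for S100b, 0.27 for Fxyd3, 0.14 for Wif1 and −0.28 for Col1a1.

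**Figure D4:**
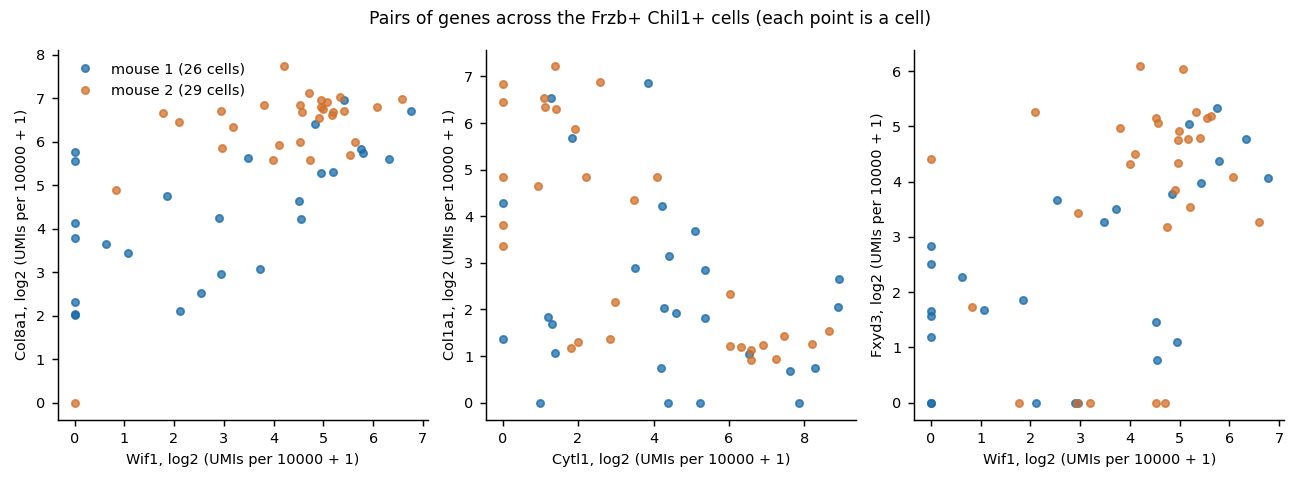
Pairs of genes across the 55 Frzb+ Chil1+ cells, each point a cell and each axis log2 of UMIs per 10000 plus 1, with mouse 1 in blue and mouse 2 in orange. Wif1 and Col8a1 rise together, and the cells with most Cytl1 have little Col1a1.

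The cells of the 2 mice differed in level for many genes, and 2 libraries give no test of it. Of 904 genes with at least 200 CPM in one mouse, 105 differed by over 2-fold with 10 CPM added. Igfbp5 was at 263 CPM in mouse 1 and 10.7 CPM in mouse 2, with 61.8% of its UMIs in mouse 1 from 1 cell, while the cells outside the groups had 362 and 328 CPM. Mmp3, stromelysin, was at 24.2 and 307 CPM, Lbp, which binds lipopolysaccharide, at 51.9 and 299 CPM, and Trf at 280 and 977 CPM. Zeb1, a transcription factor, was at 668 and 152 CPM, against 347 and 190 CPM in the cells outside the groups. Lbp was in 10 of 26 and 22 of 29 cells, so that its difference was spread over cells, whereas Svep1 (41.5 and 243 CPM) was in 4 and 5 cells.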

How the data were processed

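Tissue of each mouse was digested with enzymes, and single cells were captured in droplets and sequenced, 1 library per mouse. The deposited values are whole-number counts per gene and barcode, taken as UMI counts, without normalization. Per the submitters' processing notes, STAR, Cell Ranger 7.0.0 and the build GRCm39 were used; the roles and counting options are not given in the sources used here. Cells had at least 1000 UMIs, at least 300 genes and at most 15% mitochondrial UMIs. The members of the group and all gene lists were chosen with earlier results of these data known.

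Counts were summed per mouse and cell group and tested with edgeR 4.0.16 (TMM, filterByExpr, robust quasi-likelihood F test, 10 sums in 1 fit) in R 4.3.3, with Benjamini-Hochberg adjustment; DESeq2 1.42.0 gave alternatives. The mouse was a block, since the sums that carry one mouse number come from one animal. Genes named are the 8 largest called changes in each direction with at least 50 CPM in a group and the same direction in both mice, up to 4 called members of each of 27 lists, and markers; others were chosen after their values were seen. Scrublet (in scanpy 1.11.5) called 0 cells in both mice, so it had not worked, and the share of cells expected from the cell number with the highest scores was left out as an alternative. Scripts were tested on simulated counts. Intervals are exact.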

Additional observations from a re-analysis of the deposited data

How the results depend on the processing

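Alternatives were judged by the count of genes called and by 159 calls of named genes. With either mouse left out no test could be had, and directions then follow from the choice of genes that moved alike in both mice. Among cells of 3000 to 10000 UMIs, which left 10 and 5 Frzb+ Chil1+ cells, 52, 63 and 294 genes were called against Ucma+, Prg4+ and Frzb- Chil1- cells. With higher thresholds for Frzb, Chil1 and Cnmd, which left 8 and 13 cells, 50 and 611 were called against Col10a1+ and Frzb- Chil1- cells. Without the mouse as a replicate block the counts were 68, 7, 79 and 1052 against Ucma+, Col10a1+, Prg4+ and Frzb- Chil1- cells. Without a filter on low counts they were 537, 257 and 684 against the first 3 of these groups. With only the groups compared in the fit, 446 and 163 genes were called against Ucma+ and Col10a1+ cells. DESeq2's Wald test called 198 and 740 against Col10a1+ and Prg4+ cells, 849 were called against Prg4+ cells chosen without Cnmd, and 100 against Ucma+ cells that met the Frzb and Chil1 thresholds. The causes of these differences were not tested.

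In the share of cells, the mean of 0.242% ranged from 0.184% to 0.300% with a mouse left out, and was 0.129% between 3000 and 10000 UMIs, 0.0954% with the higher thresholds and 0.457% from 5000 UMIs. Between 3000 and 10000 UMIs Frzb was at 403 CPM, Chil1 at 836, Trf at 2152 and S100b at 527 CPM. Most Trf UMIs behind that value lay in 1 cell with 13077 CPM, among the 5 cells of mouse 2 that were left. With the higher thresholds Frzb was at 380 and Chil1 at 1536 CPM, and Chil1 was at 1214 CPM without the highest doublet scores. Between 3000 and 10000 UMIs 89 of the 159 calls of named genes ended while keeping their direction. Without the block 72 ended, and with the higher thresholds 62. The 2397 values of named genes under alternatives include 159 for each mouse left out, whose direction was fixed by the choice. Of the 2397 values, 13 turned in direction, all between 3000 and 10000 UMIs. Over Ucma+ cells these were Wif1 (−0.10), Dkk3 (−1.50), Prrx1 (−0.53), Egr3 (−0.37), Hspb1 (−0.52), Fbn2 (−5.90) and Eln (−0.29), and over Col10a1+ cells Dkk3 (−1.14). Over Prg4+ cells they were Hspb1 (−0.76), Fbn2 (−6.97) and Scd1 (−0.059), and over Frzb- Chil1- cells Steap3 (−0.53) and Egr3 (−0.0096). Fbn2 had no UMI in the few cells left, so its value depends on the prior count.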
